A study of Mus musculus with 10 samples.

Results

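The 10 genes Phgdh, Psat1, Psph, Shmt1, Shmt2, Mthfd1, Mthfd1l, Mthfd2, Cad and Ppat encode enzymes that make serine, move its one-carbon unit onto folate and start the synthesis of nucleotides. They were picked by symbol from the 55421 genes of a read count table of mouse splenic germinal center B cells. All 10 were found once, and all 10 passed the filter on low counts, the lowest count being 147 reads (Psph in HOMO CC library 3). The cells came from C57BL/6 mice aged 8 to 10 weeks and were enriched from the spleen with magnetic beads for the lectin PNA on day 10 after immunization. Mice were Pbrm1-/- (HOMO) or Pbrm1+/+ (WT), and each genotype gave a fraction labelled CC and a fraction labelled CB, names that the labels do not spell out. RNA was sequenced after ribosomal RNA depletion from 2 HOMO CC, 3 WT CC, 2 HOMO CB and 3 WT CB samples. Pbrm1 encodes a subunit of the PBAF chromatin remodelling complex. The labels give neither the deleted part of Pbrm1 nor a Cre line, and the column names carry the letters AID without explanation. Whether replicates are separate animals is not in the labels, and p-values measure the spread between libraries alone, part of which may be technical.

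Cells can make serine from the glycolytic intermediate 3-phosphoglycerate in 3 steps, catalysed in order by Phgdh, Psat1 and Psph. Serine hydroxymethyltransferases, Shmt1 in the cytosol and Shmt2 in mitochondria, then split serine into glycine and a one-carbon unit bound to tetrahydrofolate. In mitochondria Mthfd2 oxidises that unit and Mthfd1l releases it as formate, and in the cytosol Mthfd1 takes formate back onto folate. The units are used for the purine ring and for thymidylate. Ppat catalyses the committed step of purine synthesis, and Cad is the protein that carries the first activities of pyrimidine synthesis. Germinal center B cells divide fast in the dark zone, where they are called centroblasts, and are selected in the light zone, where they are called centrocytes.

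Library totals ranged from 9954006 to 67625110 reads assigned to genes, and levels are given as CPM, read counts normalised to library size with TMM scaling factors. Pbrm1 measured 152 and 150.4 CPM in HOMO CC libraries, against 239, 239 and 250.3 CPM in WT CC libraries. It measured 178 and 164 CPM in HOMO CB libraries, against 319, 309 and 312 CPM in WT CB libraries. Reads are counted per gene, so a transcript missing a few exons would still add to the count. Reads per exon were not examined, and the cause of the Pbrm1 reads in HOMO was not tested. All 8 germinal center B cell markers were detected in every library, Mki67 being the highest by mean CPM in every group. The 5 light zone markers summed to 960 to 1158 CPM in the 5 CC libraries and to 374 to 436 CPM in the 5 CB libraries. The 4 dark zone markers summed to 330 to 396 CPM in CC and to 952 to 1379 CPM in CB, and 10 genes of the G2 and M phases to 1416 to 1803 CPM in CC and to 2548 to 3152 CPM in CB. The 10 S phase genes summed to 2531 to 2853 CPM in CC and to 2690 to 3532 CPM in CB. Follicular B cell markers (5 genes) summed to 932 to 1177 CPM in CC and to 445 to 575 CPM in CB. Plasma cell markers (6 genes) summed to 412 to 671 CPM in CC and to 978 to 1122 CPM in CB. Among these, Jchain, Slamf7 and Xbp1 had lower means in CC in both genotypes, and Prdm1 and Irf4 had higher means. Prdm1 averaged 7.38 and 8.85 CPM in HOMO CC and WT CC, against 4.31 and 3.85 CPM in HOMO CB and WT CB. Irf4 averaged 93.2, 98.2, 49.2 and 50.2 CPM in the same order. Sdc1 averaged between 1.27 and 1.97 CPM. The part of these differences in the results below was not tested, and in bulk samples fewer cells of a type and less RNA per cell cannot be told apart. Other cell types also left signal. Macrophage markers (10 genes) together reached 1157 CPM in WT CC library 1, 499.6 CPM in library 2 and 295 CPM in library 3, and between 237 and 409 CPM in the other 7 libraries. Apoe, at 219, 305, 285 and 352 CPM on average in HOMO CC, WT CC, HOMO CB and WT CB, made up most of that sum in 3 of these groups, while the defining marker C1qa averaged 0.664, 28.9, 0.0805 and 0.446 CPM in the same order. Neutrophil markers (7 genes) together reached 126 CPM in HOMO CC library 2 and 158 CPM in HOMO CB library 2, and at most 14.5 CPM elsewhere. Erythroid markers (6 genes) together reached 60.4 CPM in WT CC library 1 and 14.2 CPM in library 2, and at most 3.74 CPM elsewhere. T cell markers (7 genes) reached at most 11.7 CPM in any library.

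The promoters of 2 pairs of partner enzymes whose levels part between the fractions, Shmt1 and Shmt2, and Phgdh and Psat1, chosen after their values were seen, are printed here from RefSeq (GRCm38.p6), 250 bases before to 50 after the annotated start. Capitals mark CCAAT boxes, the binding motif of the factor NF-Y, on either strand. All 4 genes lie on the minus strand, and the sequences read 5′ to 3′ along the gene.
Shmt1: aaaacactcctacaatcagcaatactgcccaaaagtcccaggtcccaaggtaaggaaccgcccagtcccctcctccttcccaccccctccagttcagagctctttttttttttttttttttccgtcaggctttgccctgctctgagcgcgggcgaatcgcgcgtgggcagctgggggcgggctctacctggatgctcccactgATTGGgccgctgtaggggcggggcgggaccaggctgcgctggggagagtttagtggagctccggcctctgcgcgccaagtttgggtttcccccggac
Shmt2: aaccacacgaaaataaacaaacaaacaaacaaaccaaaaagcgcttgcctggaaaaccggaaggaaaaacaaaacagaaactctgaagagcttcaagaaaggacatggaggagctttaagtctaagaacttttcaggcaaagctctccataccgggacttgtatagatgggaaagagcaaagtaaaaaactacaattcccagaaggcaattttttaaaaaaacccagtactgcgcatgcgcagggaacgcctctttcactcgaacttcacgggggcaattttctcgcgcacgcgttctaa
Phgdh: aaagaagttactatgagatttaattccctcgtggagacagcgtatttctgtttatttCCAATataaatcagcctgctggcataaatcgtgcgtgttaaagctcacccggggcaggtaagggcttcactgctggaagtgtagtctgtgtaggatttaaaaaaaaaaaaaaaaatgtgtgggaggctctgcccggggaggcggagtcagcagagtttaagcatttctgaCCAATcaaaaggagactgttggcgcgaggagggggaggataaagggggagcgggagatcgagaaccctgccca
Psat1: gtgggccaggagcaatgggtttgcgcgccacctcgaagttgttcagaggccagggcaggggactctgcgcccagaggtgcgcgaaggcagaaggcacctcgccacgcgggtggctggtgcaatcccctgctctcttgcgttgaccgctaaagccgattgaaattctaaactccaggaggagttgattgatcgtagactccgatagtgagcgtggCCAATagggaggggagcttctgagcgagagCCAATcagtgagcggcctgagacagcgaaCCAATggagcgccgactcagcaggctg
These windows lie at chr11:60811216-60811515 for Shmt1, chr10:127522395-127522694 for Shmt2, chr3:98339920-98340219 for Phgdh and chr19:15925010-15925309 for Psat1, for which RefSeq lists a second start whose window holds no CCAAT. Both Psat1 windows lie inside the span of the gene in the count table. The Shmt1 window holds 1 CCAAT box, at position -47 counted from 0 at the annotated start, and the Shmt2 window holds none. The Phgdh window holds 2 boxes, at -193 and -23. The Psat1 window holds 3, at -36, -6 and 23. Over all members, 6 of 10 genes had the motif CCAAT, searched on both strands, in at least 1 window (Phgdh, Psat1, Psph, Shmt1, Mthfd1 and Mthfd2), against 41.1% of the 27025 genes searched. The Myc motif CACGTG was in the windows of 0 of 10 members and of 8.09% of genes. The Atf4 motif TGATGNAA was in the windows of 0 of 10 members and of 4.51% of genes. A match or its absence in these windows says nothing of binding.

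CC fractions were compared with CB fractions of the same genotype to ask how the pathway differs between the 2 germinal center states. Shmt1, Cad and Mthfd1 were higher in CC than in CB in both genotypes. In HOMO, 3 of 10 members rose in CC (Shmt1, Cad and Mthfd1) and 0 fell, where 5.45% of all 16596 genes tested passed, 2.46% upward and 2.98% downward. In WT, 5 of 10 members rose in CC (Shmt1, Cad, Mthfd1l, Mthfd1 and Phgdh) and 1 fell (Psat1), where 23.9% of all genes passed, 11.6% upward and 12.3% downward. Calls are adjusted p-values under 0.05 in edgeR's quasi-likelihood test with Benjamini-Hochberg adjustment over all genes tested. The median log2 change of the 10 members was 0.35 in HOMO and 0.25 in WT, against -0.01 and 0.01 for all genes tested. Libraries of the fractions did not overlap for 7 members higher and 1 lower in HOMO CC, where 28.8% and 33.2% of all genes did the same. In WT CC they did not overlap for 5 members higher and 1 lower, where 16.5% and 17.9% of genes did the same. A fit that blocks on the WT replicate number gave 5 members in HOMO, with Phgdh (adjusted p = 0.0129 by edgeR) and Mthfd1l (0.00692) beside the 3, where 13.8% of all genes passed. With upper-quartile scaling the split of all genes called was 586 up and 416 down in HOMO and 2351 up and 1599 down in WT, against 409 and 495 in HOMO and 1917 and 2048 in WT with TMM. Without WT CC libraries 1 and 2, which had the highest macrophage and erythroid sums, Shmt1 and Cad still passed in WT, while Mthfd1 (log2 change 0.51, edgeR adjusted p = 0.0553), Mthfd1l (0.36, 0.0928), Phgdh (0.35, 0.182) and Psat1 (-0.46, 0.165) did not, and 4.96% of all genes passed. Without both HOMO libraries numbered 2, which had the highest neutrophil sums, no member passed in HOMO, where the log2 changes were 0.91 for Shmt1 (edgeR adjusted p = 0.230), 0.67 for Cad (0.449) and 0.46 for Mthfd1 (0.659), and 0% of all genes passed. Each of these fits leaves 1 library in a group.

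**Figure D1:**
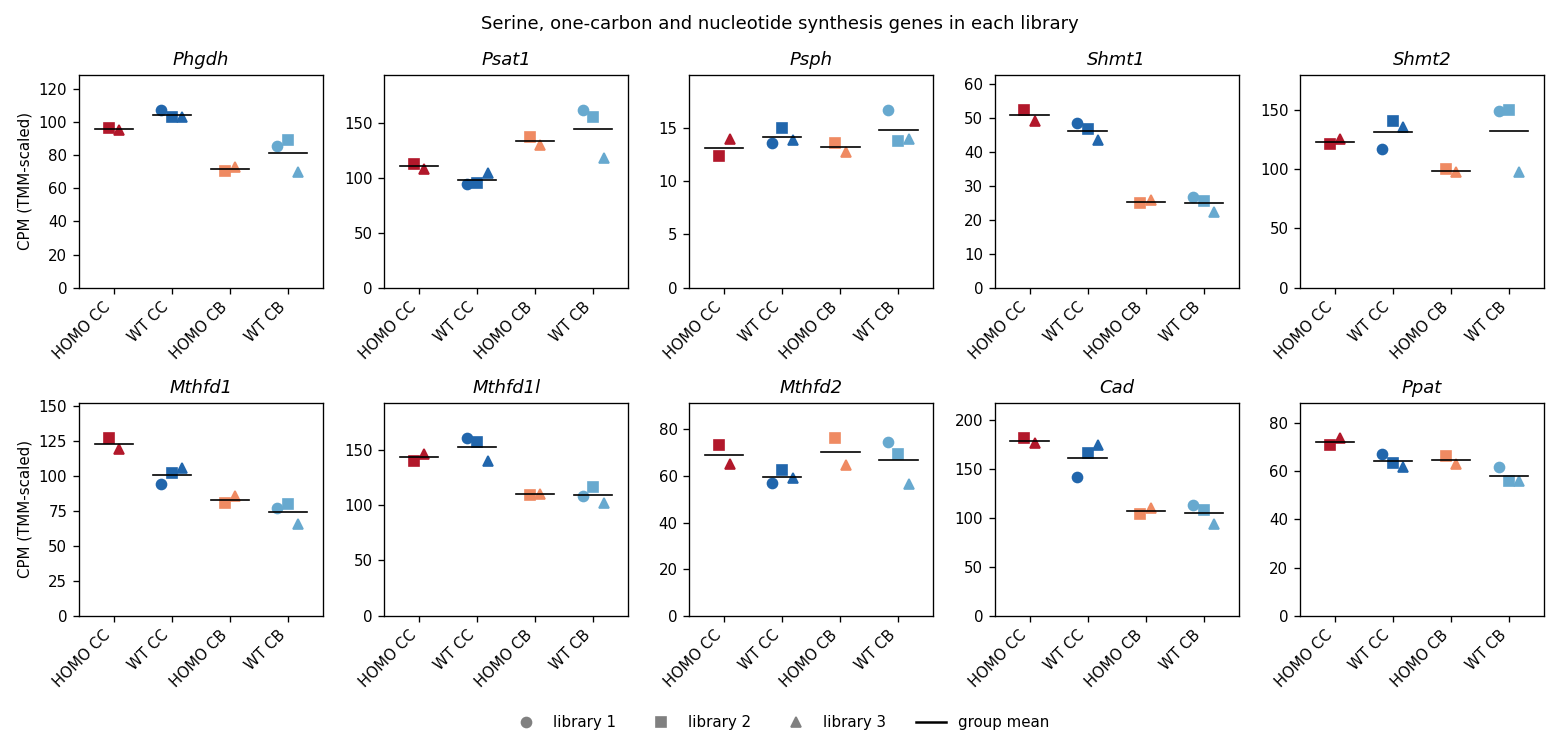
TMM-scaled CPM (y axis, from 0) of each of the 10 genes in the HOMO CC, WT CC, HOMO CB and WT CB libraries. Points are libraries, with the symbol giving the library number of the count table, and bars are group means. Shmt1 shows the clearest step, with 43.5 to 52.4 CPM in CC and 22.3 to 26.8 CPM in CB, and WT CB library 3 lies lowest of the WT CB libraries in 9 of 10 panels.

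**Figure D2:**
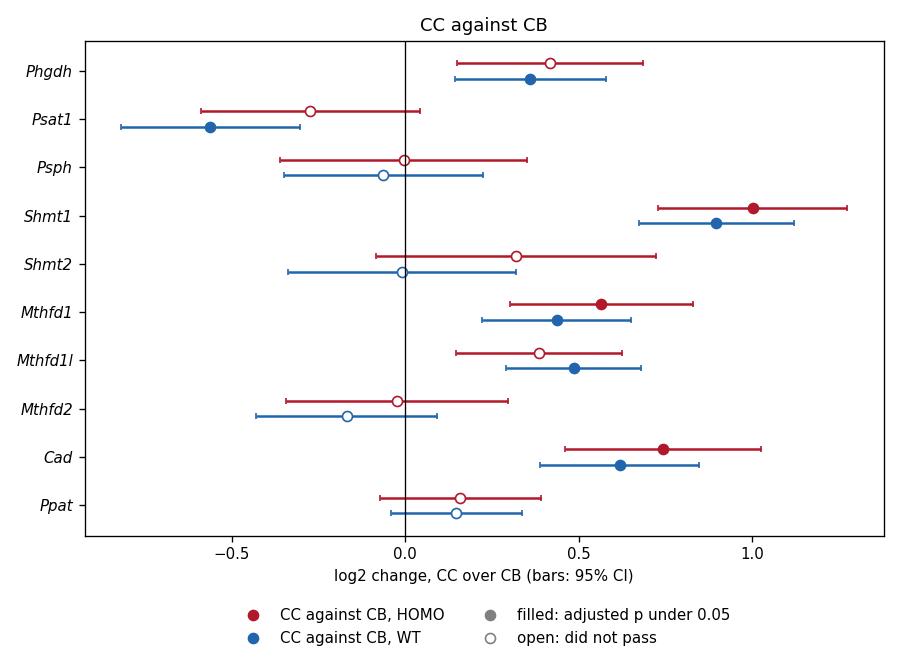
log2 change of CC over CB (x axis) for each gene, in HOMO (upper, red) and in WT (lower, blue), with 95% confidence intervals from the fit. Filled points passed at an adjusted p under 0.05. Shmt1 is farthest to the right in both genotypes (1.00 and 0.90), and Psat1 farthest to the left (-0.27 and -0.56).

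The enzymes of serine synthesis did not move together. Phgdh (ENSMUSG00000053398.11, mm10 chr3:98313170-98339990), the first enzyme of the route, was counted at 96.7 and 95.1 CPM in HOMO CC and 107, 103 and 103 CPM in WT CC, against 70.7 and 72.9 CPM in HOMO CB and 85.4, 89.3 and 69.9 CPM in WT CB. Every CC library lay above every CB library. Phgdh rose in WT CC (log2 change 0.36, SE 0.099, edgeR adjusted p = 0.0232), and its change in HOMO was 0.42 (SE 0.12, edgeR adjusted p = 0.0752). The WT call did not survive the loss of WT CB library 1 (edgeR adjusted p = 0.0548), WT CC library 1 (0.0697) or WT CC library 2 (0.0539), while the HOMO change passed without WT CB library 3 (0.00893) or WT CC library 3 (0.0291). Psat1 (ENSMUSG00000024640.9, mm10 chr19:15904678-15947337), the aminotransferase of the next step, ran the other way. It was counted at 113 and 108 CPM in HOMO CC and 94.3, 95.5 and 105 CPM in WT CC, against 138 and 130.1 CPM in HOMO CB and 162, 156 and 118 CPM in WT CB. All CC libraries lay below all CB libraries, with WT CB library 3 nearest to them. Psat1 fell in WT CC by 0.56 on the log2 scale (SE 0.12, edgeR adjusted p = 0.00645), and its change in HOMO was -0.27 (SE 0.14, edgeR adjusted p = 0.344). The WT call of Psat1 was lost without both libraries of WT number 1 (edgeR adjusted p = 0.108) or 2 (0.0832). Its HOMO change passed without both libraries of WT number 3 (edgeR adjusted p = 0.00699) and with only the groups compared (0.00694). Psph (ENSMUSG00000029446.14, mm10 chr5:129765558-129787449), the phosphatase that releases serine, was the lowest member, with 12.3 and 13.9 CPM in HOMO CC and 13.6, 14.96 and 13.9 CPM in WT CC, against 13.6 and 12.8 CPM in HOMO CB and 16.7, 13.8 and 14.0 CPM in WT CB. The groups overlapped. Its log2 change was 0.00 in HOMO (95% confidence interval -0.36 to 0.35) and -0.06 in WT (-0.35 to 0.22). Psph shares 452 bases with Cct6a on the other strand, and the strand setting of the counting is not given in the sources used here.

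The 2 serine hydroxymethyltransferases also parted. Shmt1 (ENSMUSG00000020534.14, mm10 chr11:60788104-60811718), the cytosolic enzyme, was counted at 52.4 and 49.3 CPM in HOMO CC and 48.6, 46.8 and 43.5 CPM in WT CC, against 24.9 and 25.9 CPM in HOMO CB and 26.8, 25.7 and 22.3 CPM in WT CB. The lowest CC library was above the highest CB library. Shmt1 rose 2.00-fold in HOMO CC (log2 change 1.00, SE 0.12, edgeR adjusted p = 0.00116) and 1.86-fold in WT CC (0.90, SE 0.10, edgeR adjusted p = 0.000208). It passed in WT under all 21 alternative settings and in HOMO under 20 of 21. Shmt1 shares 184 bases with Smcr8 on the other strand. Shmt2 (ENSMUSG00000025403.5, mm10 chr10:127517123-127522444), the mitochondrial enzyme, was counted at 121 and 125 CPM in HOMO CC and 117, 141 and 136 CPM in WT CC, against 99.9 and 97.2 CPM in HOMO CB and 149, 149 and 97.1 CPM in WT CB. The WT fractions overlapped, with WT CB library 3 near the HOMO CB libraries and the other WT CB libraries above all CC libraries. The log2 change of Shmt2 was 0.32 in HOMO (95% confidence interval -0.08 to 0.72, edgeR adjusted p = 0.396) and -0.01 in WT (-0.34 to 0.32, edgeR adjusted p = 0.974). With both libraries of WT number 3 left out, Shmt2 fell in WT CC by 0.21 on the log2 scale (edgeR adjusted p = 0.0382). In that setting it rose in HOMO CC by 0.32 (edgeR adjusted p = 0.0101), where 23.0% of all genes passed. With only the groups compared, Shmt2 rose in HOMO CC by 0.34 (edgeR adjusted p = 0.000681), where 30.4% of all genes passed. It passed in HOMO under 2 of 21 alternative settings.

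Of the 3 folate enzymes that carry the one-carbon unit, Mthfd1 rose in CC in both genotypes, Mthfd1l passed in WT alone and Mthfd2 in neither. Mthfd1 (ENSMUSG00000021048.7, mm10 chr12:76255298-76319803), the cytosolic enzyme with 3 activities, was counted at 127 and 119 CPM in HOMO CC and 93.7, 102 and 105 CPM in WT CC, against 80.5 and 85.3 CPM in HOMO CB and 77.2, 79.9 and 65.7 CPM in WT CB. Both fractions were set apart in each genotype, and HOMO CC stood highest. Mthfd1 rose in HOMO CC (log2 change 0.57, SE 0.12, edgeR adjusted p = 0.0198) and in WT CC (0.44, SE 0.098, edgeR adjusted p = 0.00919). The HOMO call was lost without HOMO CB library 2 (0.194) or 3 (adjusted p of 0.130 by edgeR), or HOMO CC library 2 (0.171) or 3 (0.114). Mthfd1l (ENSMUSG00000040675.17, mm10 chr10:3973118-4167081), the mitochondrial enzyme that releases formate, was counted at 140.2 and 146 CPM in HOMO CC and 160.3, 157 and 139.6 CPM in WT CC, against 109 and 111 CPM in HOMO CB and 108, 117 and 102 CPM in WT CB. Again no CC library reached down to a CB library. Mthfd1l rose in WT CC (log2 change 0.48, SE 0.089, edgeR adjusted p = 0.0034), and its change in HOMO was 0.39 (SE 0.11, edgeR adjusted p = 0.0672). The HOMO change passed without WT CB library 3 (edgeR adjusted p = 0.0257) or WT CC library 3 (0.0142). Mthfd2 (ENSMUSG00000005667.8, mm10 chr6:83305691-83325908), the mitochondrial dehydrogenase, was counted at 73.2 and 65.0 CPM in HOMO CC and 56.8, 62.8 and 59.0 CPM in WT CC, against 76.1 and 64.6 CPM in HOMO CB and 74.8, 69.6 and 56.5 CPM in WT CB. The groups overlapped. Its log2 change was -0.02 in HOMO (95% confidence interval -0.34 to 0.30) and -0.17 in WT (-0.43 to 0.09). Mthfd2 shares 2799 bases with an unclassified transcript on its own strand and Mthfd1l holds a pseudogene of 444 bases, so reads could be split there.

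Cad, at the head of pyrimidine synthesis, rose, and Ppat, at the head of purine synthesis, did not pass without a correction for GC content. Cad (ENSMUSG00000013629.16, mm10 chr5:31054780-31078479) was counted at 181 and 176 CPM in HOMO CC and 141, 166 and 174 CPM in WT CC, against 104 and 109 CPM in HOMO CB and 113, 108 and 93.3 CPM in WT CB. The fractions did not overlap. Cad rose 1.67-fold in HOMO CC (log2 change 0.74, SE 0.13, edgeR adjusted p = 0.00678) and 1.53-fold in WT CC (0.62, SE 0.10, edgeR adjusted p = 0.00221). The HOMO call was lost without HOMO CB library 2 (edgeR adjusted p = 0.0849) or 3 (0.0698), or HOMO CC library 2 (0.0807) or 3 (0.0678). Ppat (ENSMUSG00000029246.14, mm10 chr5:76913249-76951578) was counted at 70.5 and 73.4 CPM in HOMO CC and 67.03, 63.2 and 61.5 CPM in WT CC, against 66.2 and 62.8 CPM in HOMO CB and 61.8, 55.8 and 55.7 CPM in WT CB. Its fractions lay apart in HOMO and touched in WT. The log2 change was 0.16 in HOMO (95% confidence interval -0.07 to 0.39) and 0.15 in WT (-0.04 to 0.34). With an offset for GC content Ppat rose in WT CC (log2 change 0.31, edgeR adjusted p = 0.0167). Ppat shares 272 bases with the purine gene Paics on the other strand.

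Ranked by level per length, as TMM-scaled RPKM, the CPM per kilobase of exon, Shmt2 had the highest mean and Psph the lowest in all 4 groups. Shmt2 averaged 39.5 ± 0.961 RPKM in HOMO CC (SD, n = 2), 42.1 ± 4.02 in WT CC (n = 3), 31.7 ± 0.625 in HOMO CB (n = 2) and 42.4 ± 9.69 in WT CB (n = 3). In CC the next was Phgdh, with 38.6 ± 0.453 RPKM in HOMO and 42.1 ± 0.942 in WT, within the spread of Shmt2 in WT. In CB the next was Psat1, with 31.5 ± 1.25 RPKM in HOMO and 34.1 ± 5.59 in WT, within the spread of Shmt2 in both genotypes. Phgdh followed, with 28.9 ± 0.616 RPKM in HOMO CB and 32.8 ± 4.12 in WT CB, within the spread of Psat1 in WT. Psat1 stood at rank 5 in HOMO CC (26.0 ± 0.837 RPKM) and at rank 4 in WT CC (23.1 ± 1.37 RPKM), where Mthfd1 (22.6 ± 1.36 RPKM) did not differ from it beyond the spread. Shmt1 had rank 9 in every group, with 13.1 ± 0.550 and 11.9 ± 0.666 RPKM in HOMO CC and WT CC, and 6.54 ± 0.197 and 6.42 ± 0.596 RPKM in HOMO CB and WT CB. Psph averaged 3.03 to 3.42 RPKM.

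Because partner enzymes moved by different amounts, their ratios within a library differed between the fractions. These ratios of RPKM values are given as a description, with no test. Mitochondrial Shmt2 exceeded cytosolic Shmt1 by 2.88 and 3.17 times in HOMO CC libraries and 3.00, 3.75 and 3.89 times in WT CC libraries, against 5.02 and 4.68 times in HOMO CB libraries and 6.95, 7.27 and 5.43 times in WT CB libraries. No CC library reached the lowest CB ratio. Mthfd2 over Mthfd1 was 0.698 to 0.737 in HOMO CC and 0.713 to 0.782 in WT CC, against 0.964 to 1.20 in HOMO CB and 1.10 to 1.23 in WT CB. Psat1 over Phgdh was 0.665 to 0.684 in HOMO CC and 0.514 to 0.594 in WT CC, against 1.04 to 1.14 in HOMO CB and 0.986 to 1.11 in WT CB. In CC, then, Phgdh had more reads per length than Psat1 in every library, and in CB the pair lay near 1. Cad over Ppat was 1.30 to 1.38 in HOMO CC and 1.14 to 1.53 in WT CC, against 0.846 to 0.942 in HOMO CB and 0.905 to 1.05 in WT CB. Cad and Ppat differ in GC content (57.4% and 44.1%), and the ratios are not corrected for it. With a GC content offset their log2 changes in CC were 0.61 and 0.29 in HOMO, against 0.74 and 0.16 without it. In WT they were 0.51 and 0.31, against 0.62 and 0.15. The part of GC content in the ratios was not tested. Mthfd1l over Mthfd1 did not separate the fractions, with 1.11 to 1.23 in HOMO CC and 1.33 to 1.71 in WT CC, against 1.30 to 1.35 in HOMO CB and 1.40 to 1.56 in WT CB.

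**Figure D3:**
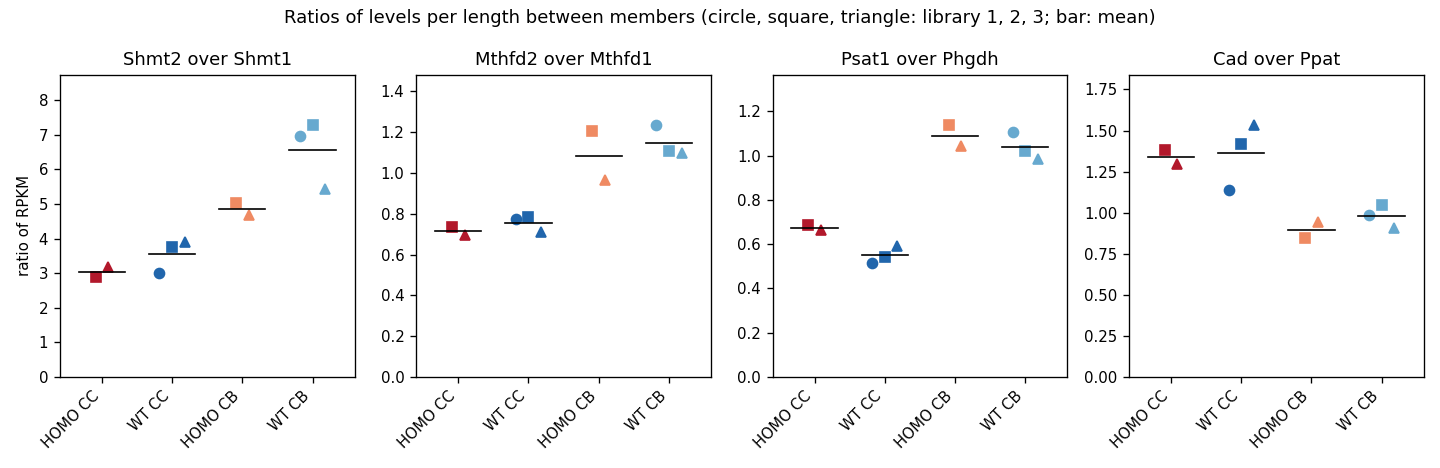
Ratio of the RPKM of 2 members within each library (y axis, from 0) for 4 pairs, in HOMO CC, WT CC, HOMO CB and WT CB. Points are libraries and bars are group means. In each panel the CC libraries lie apart from the CB libraries, as for Shmt2 over Shmt1 with 2.88 to 3.89 in CC and 4.68 to 7.27 in CB. The ratios are not corrected for GC content.

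HOMO libraries were compared with WT libraries of the same fraction to ask how the pathway differs with the Pbrm1 genotype. No member passed in either fraction. Pbrm1 itself passed in CB (log2 change -0.88, edgeR adjusted p = 0.00954) and did not pass in CC (-0.68, edgeR adjusted p = 0.0564). Its HOMO libraries lay below all WT libraries in both fractions. A missing call in CC therefore does not show that a gene is unchanged. In CC, 0 of 10 members passed by edgeR, where 0% of all genes tested did, and 1 member had an unadjusted p under 0.05, against 3142 of 16596 genes. In CB, 0 of 10 members passed by edgeR, where 0.0241% of all genes did, and 1 member had an unadjusted p under 0.05, against 2079 genes. DESeq2 gave 0 members in each fraction, and limma-voom with a random block for the WT number also gave 0 members in each fraction. Mthfd1 in CC was the member with the smallest p there, where it differed by 0.29 on the log2 scale (95% confidence interval 0.05 to 0.53, edgeR adjusted p = 0.199). In CB it was Shmt2, at -0.42 (95% confidence interval -0.79 to -0.05, edgeR adjusted p = 0.369). The other members had log2 changes between -0.12 (Phgdh) and 0.22 (Mthfd2) in CC and between -0.18 (Phgdh) and 0.16 (Mthfd1) in CB. Both HOMO CC libraries lay above all 3 WT CC libraries for 6 members (Psat1, Shmt1, Mthfd1, Mthfd2, Cad and Ppat), where 17.7% of all genes did the same, and below them for Phgdh, where 17.4% did. In CB both HOMO libraries lay above all WT libraries for Mthfd1 and Ppat (18.8% of genes) and below them for Psph (16.4% of genes). With RLE scaling no member lay below in CB, and with upper-quartile scaling Shmt2 did and Psph did not. The summed level of the 10 members was 987 and 971 CPM in HOMO CC, against 900, 953 and 941 CPM in WT CC. It was 782 and 772 CPM in HOMO CB, against 874, 864 and 695 CPM in WT CB.

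**Figure D4:**
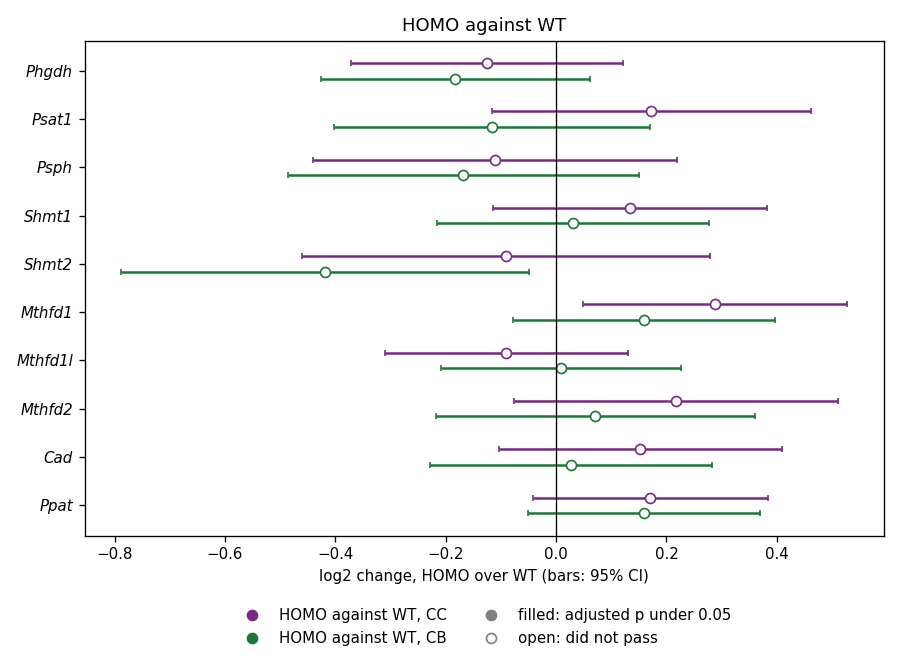
log2 change of HOMO over WT (x axis) for each gene in CC (upper, purple) and CB (lower, green), with 95% confidence intervals from the fit. All points are open because none passed at an adjusted p under 0.05, and the intervals of Mthfd1 in CC (0.05 to 0.53) and Shmt2 in CB (-0.79 to -0.05) are the ones that do not reach 0.

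The CB comparison rested on 1 WT library. WT CB library 3 was the lowest of its group for 9 of 10 members, where 45.2% of all genes were lowest there. Without it, Shmt2 fell in HOMO CB by 0.60 on the log2 scale (edgeR adjusted p = 0.00624) and Phgdh by 0.28 (edgeR adjusted p = 0.0449), where 12.1% of all genes passed. Without both libraries of WT number 3, 3 members fell in HOMO CB (Shmt2, Phgdh and Psat1), where 30.4% of genes passed in either direction. In HOMO CC 3 rose (Mthfd1, Psat1 and Cad), where 31.3% of genes passed in either direction. Each total was thus near the share of genes called in either direction. By direction, 2433 of 16088 genes fell in HOMO CB and 2649 of 16088 rose in HOMO CC. The trend of expression with GC content moved with the same libraries. Across 8792 genes, the Spearman correlation of a gene's deviation from its mean over libraries with its GC content was -0.63 and -0.61 in HOMO CB, against 0.15, 0.25 and -0.46 in WT CB libraries 1, 2 and 3. It was -0.17 and -0.22 in HOMO CC, against 0.43, 0.55 and 0.15 in WT CC. Shmt2, Cad and Phgdh have the highest GC content of the members (57.4%, 57.4% and 57.2%) and Ppat the lowest (44.1%). With all libraries, the log2 change in CB was -0.16 for Shmt2 and 0.06 for Phgdh with an offset for GC content, against -0.42 and -0.18 without it. The part of GC content in the calls made without WT CB library 3 was not tested.

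The difference of the CC against CB change between HOMO and WT was tested as an interaction, and 0 of 10 members passed by edgeR, where 0% of all genes did. At an unadjusted p under 0.05 there were 0 members and 434 genes, and DESeq2 gave 0 members. The estimates, HOMO minus WT on the log2 scale, ran from -0.10 (Mthfd1l) to 0.33 (Shmt2, 95% confidence interval -0.19 to 0.85), with Psat1 at 0.29 (-0.12 to 0.70). Phgdh, Psat1 and Mthfd1l, called in WT and not in HOMO, were thus not shown to differ between the genotypes. When both libraries of WT number 3 were left out, the interaction passed for Psat1 (0.47, edgeR adjusted p = 0.00552) and Shmt2 (0.53, edgeR adjusted p = 0.0101), where 8.98% of all genes passed.

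The genes around the members were taken from 9 lists of the wider pathway with 83 genes, of which 77 were tested. In HOMO, 5 of 77 rose and 6 fell in CC, where 2.46% of all genes tested rose and 2.98% fell. In WT, 14 rose and 20 fell, where 11.6% of all genes rose and 12.3% fell, so the surrounding genes were called in both directions, with a median log2 change of -0.01 in HOMO and 0.00 in WT. In the fit blocked on the WT number the HOMO count was 14 up and 11 down, where 13.8% of all genes passed. Leaving out 1 library gave 4 to 20 calls in HOMO and 22 to 42 in WT. Without both libraries of WT number 1, 2 or 3 the WT calls were 11, 13 and 49. Of all genes 6.32%, 7.62% and 46.0% passed there, in that order. HOMO against WT gave 0 calls among the 77 in CC and 0 in CB by edgeR, and 6 and 3 by DESeq2, where 4.92% and 1.67% of all genes passed. Leaving out 1 library gave up to 11 calls in CC (without WT CC library 3, where 14.8% of all genes passed) and up to 13 in CB (without WT CB library 3, where 12.1% passed). With upper-quartile scaling the calls among the 77 were 12 up and 6 down in HOMO, and 21 up and 16 down in WT. In HOMO against WT, values for 3 of the genes are given without a call. Impdh1 averaged 8.07 ± 1.06 CPM in HOMO CC and 14.5 ± 1.15 CPM in WT CC (log2 change -0.85, edgeR adjusted p = 0.094), and 5.77 ± 0.234 CPM in HOMO CB and 9.49 ± 0.339 CPM in WT CB (-0.72, edgeR adjusted p = 0.187). Dck had 0.57 in CC (edgeR adjusted p = 0.104), and Slc1a5, a neutral amino acid transporter gene, -0.41 in CC (0.146).

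**Figure D5:**
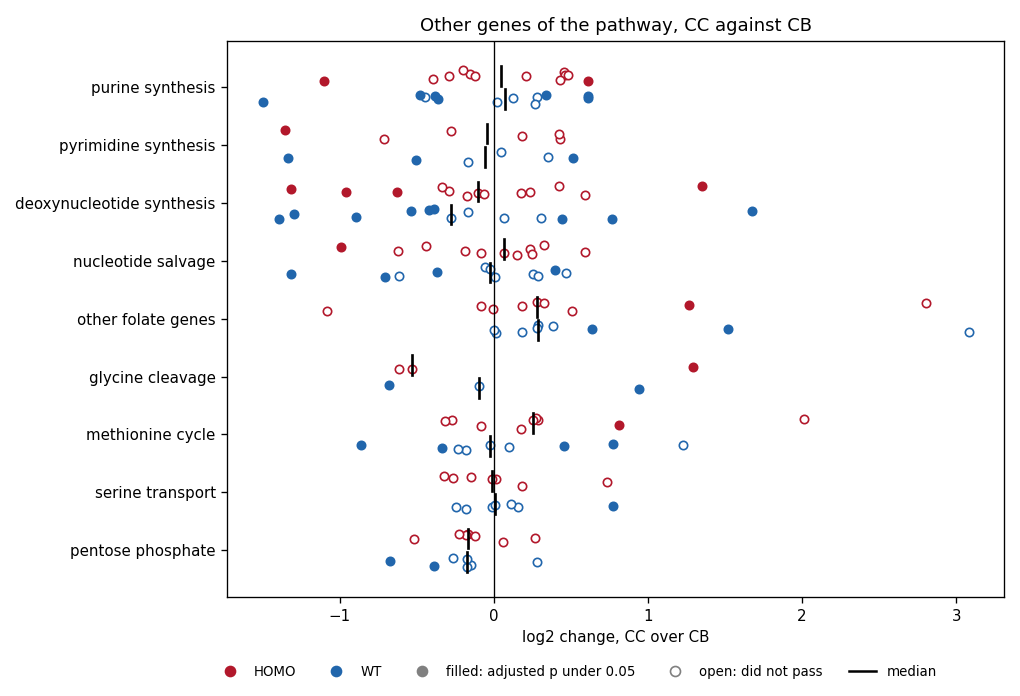
log2 change of CC over CB (x axis) for the tested genes of 9 lists (rows), in HOMO (upper, red) and WT (lower, blue). Filled points passed at an adjusted p under 0.05 and bars are medians. In the deoxynucleotide row 6 of 13 genes fell and 3 rose in WT, where 12.3% of all genes tested fell and 11.6% rose.

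Genes that supply deoxynucleotides changed in both directions in CC. In the deoxynucleotide list 3 of 13 genes fell and 1 rose in HOMO, and 6 fell and 3 rose in WT. Of all genes tested, 2.98% fell and 2.46% rose in HOMO, and 12.3% fell and 11.6% rose in WT. The same shares stand beside the pyrimidine and salvage counts below. Rrm2b, a small subunit of ribonucleotide reductase, averaged 62.0 ± 3.44 CPM in HOMO CC and 154 ± 0.488 CPM in HOMO CB (SD, n = 2 each), and 53.9 ± 2.70 CPM in WT CC and 142 ± 6.59 CPM in WT CB (n = 3 each). Its log2 change was -1.32 in HOMO and -1.40 in WT. Dctd, deoxycytidylate deaminase, named after its values were seen, rose by 1.35 in HOMO (SE 0.33, edgeR adjusted p = 0.0386) and by 1.67 in WT (SE 0.27, edgeR adjusted p = 0.00179), at 7.28 CPM in HOMO CC and 7.75 CPM in WT CC, against 2.85 CPM in HOMO CB and 2.45 CPM in WT CB on average. The HOMO call of Dctd was lost without any 1 of the 4 HOMO libraries, WT CB library 1 or WT CC library 1 (edgeR adjusted p up to 0.287). Dck, which phosphorylates salvaged deoxycytidine, fell by 0.96 in HOMO and by 1.30 in WT. In the pyrimidine list 1 of 6 genes fell in HOMO and 2 fell and 1 rose in WT. Cmpk1, the nucleoside monophosphate kinase, fell by 1.35 in HOMO and by 1.34 in WT. The CTP synthetases parted in WT, where Ctps rose by 0.52 and Ctps2 fell by 0.50. Salvage genes gave 1 fall of 11 in HOMO, and 3 falls and 1 rise in WT. Ada, adenosine deaminase, fell by 0.99 in HOMO and by 1.31 in WT, Pnp fell by 0.71 in WT and Uckl1 rose by 0.40 in WT. Of these calls, Dck without HOMO CC library 2 (edgeR adjusted p = 0.0566) no longer passed in HOMO, and Ctps2 (up to 0.0928) and Uckl1 (up to 0.0584) each lost the WT call without any 1 of 3 WT libraries. Without both libraries of WT number 1 or 2, the WT calls of Ctps, Ctps2, Pnp and Uckl1 were lost (edgeR adjusted p = 0.0540 to 0.150).

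Purine synthesis was mixed, and the gene of the folate carrier rose in CC in both genotypes. Of 12 purine genes 1 rose and 1 fell in HOMO, and 3 rose and 4 fell in WT. For this list and those below, 2.46% of all genes tested rose and 2.98% fell in HOMO. In WT 11.6% of all genes rose and 12.3% fell. Prps2, which makes the ribose donor PRPP that Ppat uses, averaged 105 ± 1.92 CPM in HOMO CC and 226 ± 9.46 CPM in HOMO CB (SD, n = 2 each), and 76.3 ± 24.7 CPM in WT CC and 215 ± 12.7 CPM in WT CB (n = 3 each). It fell by 1.10 in HOMO and by 1.50 in WT on the log2 scale. Pfas, a later enzyme of the purine route, rose by 0.61 in each genotype, and Impdh1, of guanine nucleotide synthesis, rose by 0.61 in WT. Slc19a1, the reduced folate carrier, was at 13.8 ± 0.681 CPM in HOMO CC and 5.76 ± 0.612 CPM in HOMO CB, and at 15.8 ± 2.18 CPM in WT CC and 5.52 ± 0.724 CPM in WT CB. Its log2 change was 1.27 in HOMO and 1.52 in WT. Among other folate genes 1 of 9 rose in HOMO and 2 in WT, the second being Mthfs (0.64), and 0 fell. The glycine cleavage gene Gcsh rose by 1.29 in HOMO and by 0.94 in WT, and Dld, shared with other dehydrogenase complexes, fell by 0.68 in WT, the third tested gene giving no call. In the methionine cycle 1 of 9 rose in HOMO (Ahcyl2, 0.81), and 2 rose and 2 fell in WT, with Ahcyl2 at 0.77, methionine synthase (Mtr) at 0.46 and Mat2b at -0.34. Of 7 serine transport genes 0 passed in HOMO and 1 rose in WT, the mitochondrial carrier gene Sfxn2 (0.77). Of 7 pentose phosphate genes 0 passed in HOMO and 2 fell in WT, Rpia (-0.67) and Taldo1 (-0.38). In HOMO, Prps2 (adjusted p of up to 0.122 by edgeR), Pfas (0.248), Slc19a1 (0.0881), Gcsh (0.166) and Ahcyl2 (0.356) lost the call without a HOMO library. Pfas also lost it without WT CB library 1, and Ahcyl2 without WT CB library 1 or WT CC library 1 or 2. In WT, Mat2b (0.107) and Taldo1 (0.156) lost the call without a WT library. Taldo1 also lost it without any 1 HOMO library and kept it under 8 of 21 alternatives. Without both libraries of WT number 1, the WT calls of Pfas, Impdh1, Mthfs, Gcsh, Mtr, Ahcyl2 and Sfxn2 were lost too (edgeR adjusted p = 0.055 to 0.121). Without both libraries of WT number 2, those of Impdh1, Mthfs, Gcsh and Rpia were lost (edgeR adjusted p = 0.0606 to 0.0676).

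Myc, a transcription factor known to drive nucleotide and one-carbon genes, was at 69.8 and 68.4 CPM in HOMO CC and 67.3, 69.6 and 75.8 CPM in WT CC, against 30.3 and 30.7 CPM in HOMO CB and 30.3, 33.2 and 33.6 CPM in WT CB. The fractions lay far apart, and the genotypes overlapped in CC. Myc rose in HOMO CC (log2 change 1.18, SE 0.11, edgeR adjusted p = 0.000409) and in WT CC (1.13, SE 0.089, edgeR adjusted p = 2.8e-05). Atf4, known to drive Phgdh, Psat1, Shmt2 and Mthfd2 under amino acid stress, averaged 144 ± 2.65 CPM in HOMO CC and 174 ± 5.33 CPM in HOMO CB (SD, n = 2 each), and 173 ± 3.88 CPM in WT CC and 191 ± 19.3 CPM in WT CB (n = 3 each). In a list of Atf4 and targets, 0 of 11 genes tested passed by edgeR in any comparison of 2 groups. Of all genes, 5.45% passed for CC against CB in HOMO and 23.9% in WT. For HOMO against WT the shares of all genes were 0% in CC and 0.0241% in CB. The list of Atf4 and targets leaves out Phgdh, which rose in WT CC, and Psat1, which fell there. Asns, asparagine synthetase, differed by 0.57 on the log2 scale (SE 0.21, edgeR adjusted p = 0.194) in HOMO CC against WT CC.

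The members were also compared with every other gene by pattern. The mean standardized log2 CPM of the 10 members was set against each of 8132 genes over the 10 libraries, which share fraction, genotype and depth, so the values describe likeness only. The 8 genes most like it were Cxcr5 (Pearson r = 0.952), Rhof (0.947), Rassf2 (0.943), Gart (0.942), Gimap7 (0.941), Adsl (0.941), Wdr6 (0.938) and Napsa (0.933). Gart and Adsl are themselves enzymes of purine synthesis.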

How the data were processed

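Values are whole-number read counts per gene, deposited by the authors without normalization for 55421 genes in 10 libraries. FastQC, STAR, Subread, featureCounts, R 4.2.1 and mm10 are named in the submitters' processing notes, without settings, and strand handling is not given in the sources used here. The gene length deposited beside the counts was used for RPKM. Groups came from the titles. The table numbers HOMO columns 2 and 3 and the titles 1 and 2, so HOMO columns were assigned to groups only, without pairing.

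In R 4.3.3, edgeR 4.0.16 kept 16596 genes (filterByExpr with a count of at least 10 and a total of at least 15) and scaled libraries by TMM. All 10 libraries entered 1 model of 4 group means. Contrasts were tested two-sided by the robust quasi-likelihood F-test of edgeR, adjusted by Benjamini-Hochberg over all genes tested, at 0.05. The biological coefficient of variation common to all genes was 23.1%. The SE is the log2 change divided by the root of F. Steps were tested on simulated data. No pair of libraries in a group was a duplicate (chi-square per degree of freedom 4.14 to 80.7 over genes with at least 20 reads).

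The members and lists were chosen with earlier results of these data known. All members are named. From each other list the text takes up to 3 of the genes that passed, by smallest p, and where none did up to 2 with values alone. Some genes of these lists are not reported here. The 8 most similar genes needed an average log2 CPM of at least 3.

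Across 8795 genes, deviations from group means correlated with r = 0.303, 0.427 and 0.436 between WT CC and CB libraries of the same number, and with -0.411 to 0.277 otherwise. For WT CB library 1 the gap was small, with 0.303 for WT CC library 1 and 0.277 for WT CC library 2. WT numbers were taken as pairs, from the data and not the labels, in some of the alternatives alone. The main fit does not use them. For CC against CB in WT, 35.4% of all genes passed with the WT number as a term, against 23.9% in the main fit. Alternatives were RLE and upper-quartile scaling, DESeq2 1.42.0, no filter, only the groups compared, each library or WT number left out, the replicate block (limma 3.58.1 for the random block), a GC content offset (spline with 6 degrees of freedom), and 2 chosen after seeing the data: without WT CC libraries 1 and 2, and without both HOMO libraries numbered 2. Promoters are RefSeq windows of GRCm38.p6.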

Additional observations from a re-analysis of the deposited data

How the results depend on the processing

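No call of a member changed direction under any alternative run. Leaving out 1 library gave 5 to 6 members for CC against CB in WT (6 with all libraries), 1 to 5 in HOMO (3 with all), 0 to 2 for HOMO against WT in CB (0 with all), and 0 in CC and for the interaction. In HOMO, CC against CB gave 5 members with RLE scaling, upper-quartile scaling, DESeq2 or the replicate block (WT number as a term), and 7 with only the groups compared, where 30.4% of all genes passed (5.45% with all groups in the fit). The block left the WT count at 6, the interaction at 0 and HOMO against WT at 0 in both fractions. Without both libraries of WT number 3, 3 members passed for HOMO against WT in CB (30.4% of all genes), 3 for it in CC (31.3%), 7 for CC against CB in HOMO (23.0%), 8 in WT (46.0%, with Shmt2 and Mthfd2 lower in CC) and 2 for the interaction (8.98%). The GC content offset gave 7 members in WT, Ppat included. Without both libraries of WT number 1, 3 passed for CC against CB in WT. Of the alternatives chosen after seeing the data, leaving out WT CC libraries 1 and 2 left 2 members in WT (Shmt1 and Cad), and leaving out both HOMO libraries numbered 2 left 0 in HOMO, where 0% of all genes passed. Both leave a group with 1 library, which is assumed to vary like the others. The cause of these changes was not tested. Counts over all genes moved as well. Without both libraries of WT number 3 they were 4895 and 5035 for the genotype comparison in CB and CC, against 4 and 0 with all libraries. DESeq2 gave 277 and 816. The lowest count of a member was 147 reads, and the part of depth in the calls was not tested. The 2 or 3 libraries a group limit the precision.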
